A study of Rattus norvegicus with 12 samples.

Results

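The comparison described here sets 3 rat cornea libraries labelled SF/HA-HEP-PAM against 3 labelled Control. It covers the 6112 genes that reached at least 1 FPKM in at least 3 of the 12 libraries of the series, out of 30452 genes in the table. FPKM is reads on a gene scaled by its length and by the library's total. Of these 6112 genes, 5431 were protein-coding. The series tests a silk patch that sits on the eye surface for a limited time and can be taken off again, meant to draw away mediators of inflammation. Each of its 4 groups has 3 libraries. Beside SF/HA-HEP-PAM and Control these are Alkali-burned corneas and corneas labelled SF/HA. The labels give tissue and group alone. They leave the abbreviations SF, HA, HEP and PAM open and do not name a strain, age, dose or time after treatment, or say whether the corneas under the patch had been burned. Nor is it said whether each replicate is its own animal. The p-values therefore speak to the scatter among these libraries alone, and that scatter may be technical.

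The cornea is a clear tissue made of a layered epithelium, a collagen-rich stroma kept by keratocytes, and a single endothelial layer facing the inner eye. A wounded cornea is known to pass through an acute phase. Epithelial cells at the edge migrate and switch on wound keratins and proteases of the plasminogen system, keratocytes leave their quiescent secretory state, and neutrophils and macrophages enter along chemokine gradients. Cytokines such as interleukin-1 and interleukin-6, and the matrix metalloproteinases they induce, are known drivers of stromal breakdown.

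Of the 6112 genes, 709 differed between SF/HA-HEP-PAM and Control, which is 11.6% of those tested. A gene was called different at a Benjamini-Hochberg adjusted p below 0.05 in limma and a log2 difference above 1 or below -1 on the log2(FPKM + 1) scale. Among them 563 were higher under the patch (9.21% of tested genes) and 146 were lower (2.39%). Counts by gene list below stand beside these shares. The ranges of the 2 groups did not overlap in 2380 of the 6112 tested genes and in 704 of the 709 called. A lack of overlap alone therefore marks no gene out. The median log2 difference over all tested genes was 0.14, and the differences below were not corrected for it. Of the called genes 79.4% were higher. After quantile normalization, which moved the median to -0.11, the split was 385 higher and 283 lower, or 57.6% higher. The last gene inside the adjusted threshold was ENSRNOG00000070806 (log2 2.72, adjusted p = 0.0499, limma) and the first outside was Ppp1r15b (1.88, adjusted p = 0.0505).

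**Figure D1:**
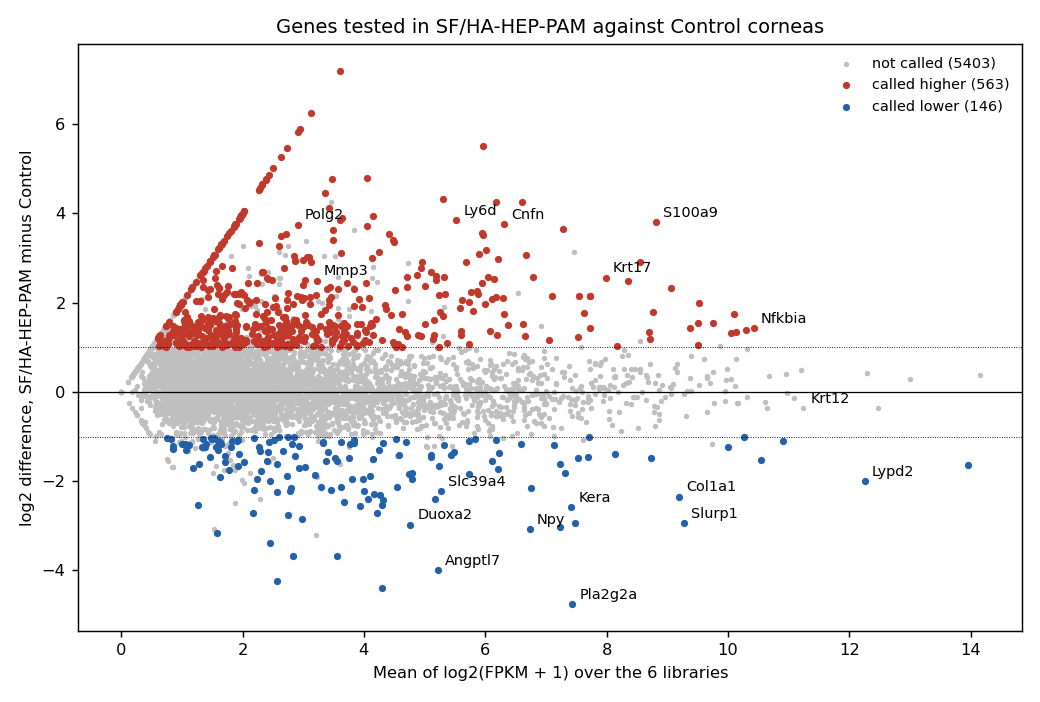
Each point is 1 of the 6112 tested genes, placed by its mean of log2(FPKM + 1) over the 6 libraries (x axis) and by its log2 difference, SF/HA-HEP-PAM minus Control (y axis). Red points were called higher (563), blue points lower (146) and grey points were not called; the straight upper edge at the left holds genes with 0 reads in every Control library.

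The libraries differed in more than their labels. SF/HA-HEP-PAM libraries held 1245606 to 2117399 reads on genes and Control libraries 486264 to 1015788, a ratio of 2.01 between the means (exact two-sided permutation test, p = 0.1, the smallest that 3 against 3 can give). For a 1 kb gene, 0 reads leave room for levels up to 2.95 to 6.17 FPKM in Control and 1.42 to 2.41 FPKM under the patch, for counting error only. Mitochondrial rRNA took 4.77% ± 1.005 of Control reads and 1.56% ± 0.262 of patch reads (SD, n = 3 each; exact p = 0.1). The part of depth and RNA composition in the counts of calls was not tested beyond refits at equal depth: with reads thinned to the smallest library, 476 genes were higher and 143 lower. In stromal genes Control replicate 1 was the highest Control library, and in S100a8 and S100a9 SF/HA-HEP-PAM replicate 3 was far above its group. Without both, 464 genes were higher and 126 lower.

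Defining markers of corneal epithelium were present in both groups, while other members of the marker list differed. Krt12, the keratin that defines corneal epithelium, stood at 1697, 3655 and 3354 FPKM in Control replicates 1 to 3 and at 2254, 2340 and 1832 FPKM under the patch (log2 -0.37, SE 0.31, adjusted p = 0.439, limma). Krt5 of the basal layer (log2 -0.25) and Pax6, the transcription factor that specifies corneal fate (0.30), were not called either. The ranges of all 3 genes overlapped between groups. For Krt12 the overlap rested on Control replicate 1, as Control replicates 2 and 3 lay above every patch library. The 24 epithelial marker genes in the table together took 5.38% to 10.1% of Control reads and 5.70% to 6.14% of patch reads. In FPKM they summed to 12215 to 24994 in Control and 8674 to 10731 under the patch, without overlap. Of the 22 tested, 5 were higher (22.7%) and 4 lower (18.2%), beside 9.21% and 2.39% of all tested genes. Areg, Klf5, Krt15, Clu and Ly6d were higher, and Slurp1, Lypd2, Tkt and Aldh3a1 lower.

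Genes of the stroma were among the most strongly lowered. Pla2g2a, a secreted phospholipase A2, stood at 1694, 425 and 1005 FPKM in the Control libraries and at 57.8, 26.4 and 21.8 FPKM under the patch (log2 -4.76, SE 0.52, adjusted p = 0.000346, limma). Angptl7, a secreted angiopoietin-like protein of the corneal stroma, went from 289, 109 and 103 to 13.4, 6.15 and 6.91 FPKM (log2 -4.00, SE 0.43, adjusted p = 0.000337). In both genes Control replicate 1 was the highest library and no patch library came near the lowest Control value. In build mRatBN7.2, Pla2g2a (ENSRNOG00000016945) lies on chromosome 5 from 151076442 to 151079014, plus strand.

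Among 12 tested keratocyte markers 5 fell and 1 rose. Kera encodes keratocan, the keratan sulphate proteoglycan specific to keratocytes, and measured 794, 288 and 322 FPKM in Control against 98.9, 66.8 and 49.2 FPKM under the patch (log2 -2.59, SE 0.38, adjusted p = 0.00147, limma). Chad, a leucine-rich matrix protein, fell by 3.67 on the log2 scale. The single rise, Thbd for thrombomodulin, was called in neither fit without Control replicate 2 or 3 nor in those without SF/HA-HEP-PAM replicate 1 or 3. With only the 6 compared libraries fitted, 3 markers were lower. The other leucine-rich proteoglycans did not follow Kera. Lum, which encodes lumican, stood at 861, 379 and 518 FPKM in Control and 416, 495 and 290 FPKM under the patch (log2 -0.50, adjusted p = 0.247), and Dcn, for decorin, at 336, 169 and 181 against 238, 232 and 137 FPKM (log2 -0.14, adjusted p = 0.769). Both overlapped between groups. The sign of the Dcn difference turned to 0.17 without Control replicate 1 and to 0.11 without SF/HA-HEP-PAM replicate 3.

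Of 12 tested collagen genes 7 fell, none was called higher and 5 were not called. Col1a1, the main chain of stromal collagen fibrils, went from 2542, 910 and 990 FPKM in Control to 347, 280 and 176 FPKM (log2 -2.35, SE 0.36, adjusted p = 0.00184, limma). Its partner Col1a2 fell by 2.15. All 3 chains of collagen VI, the beaded-filament collagen that is abundant in cornea, fell by similar amounts (log2 -2.40 for Col6a1, -2.41 for Col6a2 and -2.24 for Col6a3). The median over the 12 genes was -1.17, beside 0.14 over all tested genes. The count was 5 without Control replicate 1 and 5 without SF/HA-HEP-PAM replicate 3. With both left out, Col1a1 was still lower (-1.60), as were Kera (-1.89), Angptl7 (-3.40) and Pla2g2a (-4.03). On the recovered reads in voom, 4 collagen genes were called higher, where none was on FPKM.

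Other secreted and matrix proteins moved in both directions. In the list of 17 leucine-rich proteoglycans and secreted stromal proteins, which holds Pla2g2a, Angptl7, Chad and Kera, 6 fell and 2 rose. The rises numbered 1 without Control replicate 2 or 3, or without SF/HA-HEP-PAM replicate 1 or 2. Mfap4, a microfibril protein, fell (log2 -2.93), as did Kazald1 (-2.71), Sparc, a collagen-binding matricellular protein (-1.82), and Igfbp6, a binding protein of insulin-like growth factors (-2.21). In contrast Mgp, the matrix Gla protein that inhibits calcification, rose from 792, 362 and 456 to 1508, 1757 and 1225 FPKM (log2 1.54, SE 0.26, adjusted p = 0.00297, limma). No patch library of Mgp fell within the Control range. In bulk tissue, fewer keratocytes and less RNA per keratocyte cannot be told apart.

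**Figure D2:**
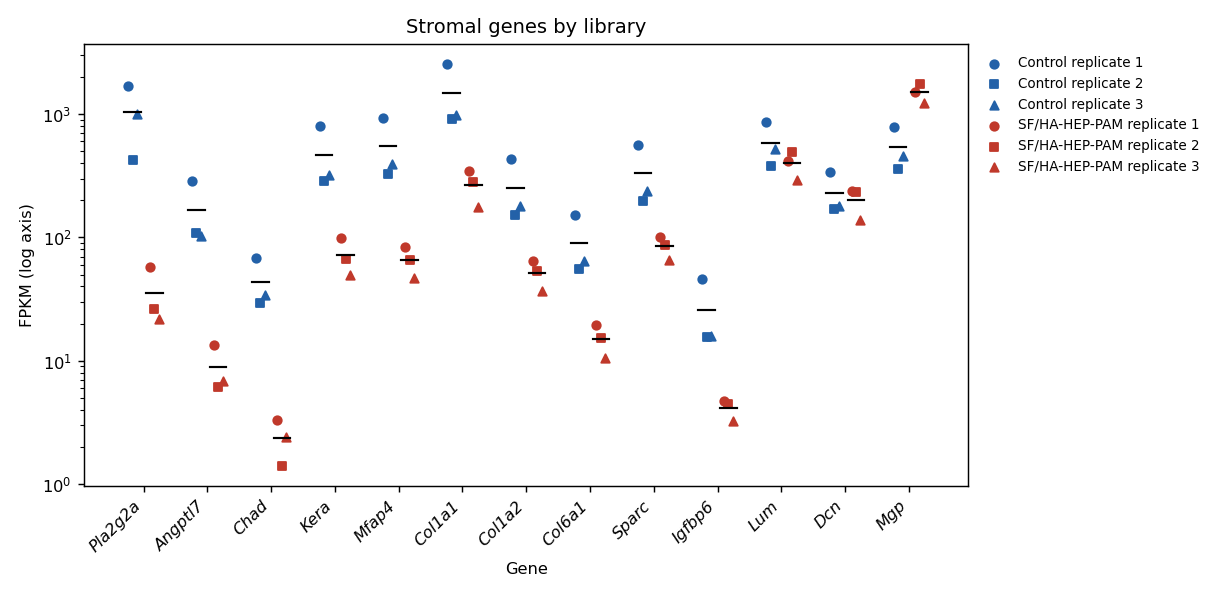
FPKM (log axis) of 13 stromal genes in each of the 6 libraries, Control in blue and SF/HA-HEP-PAM in red, with a marker shape for each replicate and a bar at the group mean. The 10 genes at the left are lower under the patch with no overlap, Lum and Dcn overlap, and Mgp is higher under the patch.

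Of 16 tested myofibroblast and contractile genes, a list that also holds matrix genes, 4 rose and 1 fell. The rises were Tagln, Tpm2, Tpm1 and Ccn1, and the fall was the matrix protein Sparc. Tagln, an actin-binding protein of smooth muscle and myofibroblasts, stood at 0.251, 0.275 and 0.360 FPKM in Control and 3.07, 8.58 and 7.15 FPKM under the patch (log2 2.40, adjusted p = 0.00591, limma). Control held 6 reads of it in all, so the size depends on the pseudocount, and with a pseudocount of 5 the call ended (adjusted p = 0.054). Tpm2, a tropomyosin, rose by 2.05 from 1.98 to 2.59 FPKM in Control to 11.2 to 14.5 FPKM under the patch. Acta2, the actin that defines myofibroblasts, measured 1.26, 0.867 and 0.984 FPKM against 1.88, 5.48 and 4.44 FPKM. The groups did not overlap, as in 2380 of all 6112 tested genes, and the difference was not called (log2 1.199, adjusted p = 0.115, limma).

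Of 19 tested plasminogen and serpin genes 6 rose and 2 fell. Plau encodes urokinase, the enzyme that turns plasminogen into plasmin at the cell surface, and stood at 15.4, 18.8 and 12.6 FPKM in Control against 77.5, 117 and 100 FPKM under the patch (log2 2.57, SE 0.29, adjusted p = 0.000375, limma). Its receptor Plaur went from 7.203, 11.8 and 9.48 to 38.3, 50.4 and 61.9 FPKM (log2 2.28, adjusted p = 0.000416). Serpinb2, which encodes the inhibitor PAI-2, rose from 2.28, 1.63 and 1.97 to 9.22, 30.3 and 41.3 FPKM (log2 3.02, adjusted p = 0.00605). SF/HA-HEP-PAM replicate 1 was the lowest patch library for all 3 genes, and without it the Serpinb2 difference was 3.63. The 2 falls of the list became 1 without Control replicate 1, 1 without SF/HA-HEP-PAM replicate 2 and 0 without SF/HA-HEP-PAM replicate 3.

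Of 12 tested matrix metalloproteinases and their inhibitors 3 rose, and none fell. Mmp3, stromelysin-1, which cleaves proteoglycans and activates other metalloproteinases, was 3.04, 2.92 and 2.83 FPKM in Control and 22.7, 26.0 and 15.9 FPKM under the patch (log2 2.49, SE 0.21, adjusted p = 0.000135, limma). Mmp13, the interstitial collagenase of rodents, rose from 0.800, 0.878 and 1.24 to 5.57, 18.9 and 14.4 FPKM (log2 2.69, adjusted p = 0.000963). Mmp13 in Control lies near the pseudocount of 1, and voom on recovered reads put its difference at 3.45. Timp1, the inhibitor of metalloproteinases, rose alongside them from 10.8 to 14.9 FPKM in Control to 75.1 to 105 FPKM (log2 2.69, adjusted p = 0.000346). Mmp9, gelatinase B, was at 0.249, 0.546 and 0.477 FPKM in Control and at 0.845, 0.686 and 4.66 FPKM under the patch, with only SF/HA-HEP-PAM replicate 3 above 1 FPKM; it was not called (log2 0.88, adjusted p = 0.378). The list count was 5 without Control replicate 1 and 5 without SF/HA-HEP-PAM replicate 1.

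Cytokine genes rose in 10 of 21 tested members, and none fell. Il1b, interleukin-1 beta, stood at 13.8, 6.87 and 9.53 FPKM in Control and 36.5, 52.6 and 129 FPKM under the patch (log2 2.58, SE 0.53, adjusted p = 0.00765, limma). Il6 went from 3.55, 2.15 and 2.21 to 9.29, 16.5 and 14.3 FPKM (log2 1.97, adjusted p = 0.009), and Csf3, the growth factor of neutrophils, from 29.6 to 42.9 FPKM to 101 to 185 FPKM (log2 2.13, adjusted p = 0.00734). No library of these genes crossed between groups. Tnf, in contrast, measured 3.93, 9.05 and 7.89 FPKM in Control and 5.33, 6.49 and 11.95 FPKM under the patch, with the ranges overlapping (log2 0.16, adjusted p = 0.801). Its sign turned to -0.15 without Control replicate 1 and to -0.14 without SF/HA-HEP-PAM replicate 3. The list count of 10 dropped to 5 without SF/HA-HEP-PAM replicate 3.

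Chemokines rose in 9 of 21 tested members and fell in 1. Cxcl1, a neutrophil attractant and the most abundant of those called higher, went from 314, 466 and 455 to 948, 1131 and 1199 FPKM (log2 1.42, SE 0.25, adjusted p = 0.00372, limma). Cxcl3 of the same family rose by 2.79, Ccl7 and Ccl20 by 2.10 and 2.03. Ccl3, a macrophage attractant, rose from 26.5, 16.003 and 17.1 to 79.2, 150 and 435 FPKM (log2 3.10, adjusted p = 0.0078), with a difference of 2.43 without SF/HA-HEP-PAM replicate 3. Ccl2, the monocyte attractant with the highest level of the list, was not called (log2 1.04, adjusted p = 0.103, limma). Its groups did not overlap (546 to 879 FPKM in Control, 948 to 1722 FPKM under the patch), as in 2380 of all 6112 tested genes. The single fall was Cxcl14, a chemokine that resting epithelia make constitutively, from 31.6, 36.6 and 33.1 to 7.08, 6.15 and 6.04 FPKM (log2 -2.23, SE 0.24, adjusted p = 0.00033). Without Control replicate 1, or without SF/HA-HEP-PAM replicate 3, 6 chemokines were higher.

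Targets and brakes of NF-kB, the transcription factor downstream of interleukin-1, rose in 8 of 23 tested genes. Nfkbia, which encodes its inhibitor IkB-alpha, stood at 506, 1061 and 1107 FPKM in Control and 2001, 2419 and 2366 FPKM under the patch (log2 1.42, adjusted p = 0.00391, limma). Tnfaip3, the ubiquitin-editing brake A20, rose by 1.80 and the adhesion molecules Icam1 and Vcam1 by 2.12 and 1.35. Sod2, the mitochondrial superoxide dismutase that inflammatory signals induce, rose by 2.08, from 27.5 to 37.0 FPKM in Control to 117 to 186 FPKM. All 23 differences of the list were above 0, with a median of 0.81, beside a median of 0.14 over all tested genes. Without Control replicate 1 the count was 5, and 5 after quantile normalization. Among 22 tested interferon response genes 3 rose and 1 fell, and Gbp2, a guanylate-binding protein, was the largest rise (2.30). Those are 13.6% and 4.55%, beside 9.21% and 2.39% of all tested genes. The interferon rises numbered 5 without SF/HA-HEP-PAM replicate 3, and the falls 2 without Control replicate 1.

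The upstream windows of genes from these groups are shown because members of the protease, cytokine and envelope lists were called higher. They are the 250 bases before the RefSeq gene start in build GRCr8, read in the direction of the gene from 5′ to 3′. Capitals mark matches, on either strand, to the AP-1 motif TGANTCA in Mmp13, Mmp3 and Sprr1a and to an NF-kB motif in Il6 and Cxcl1, taken as 3 G, any 5 bases and 2 C. Overlapping matches were counted apart and run together in capitals.
Mmp13: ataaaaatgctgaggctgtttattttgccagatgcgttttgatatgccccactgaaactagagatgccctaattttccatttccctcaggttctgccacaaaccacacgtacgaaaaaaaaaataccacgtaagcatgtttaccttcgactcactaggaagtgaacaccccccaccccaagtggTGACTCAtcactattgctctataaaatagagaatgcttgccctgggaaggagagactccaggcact
Mmp3: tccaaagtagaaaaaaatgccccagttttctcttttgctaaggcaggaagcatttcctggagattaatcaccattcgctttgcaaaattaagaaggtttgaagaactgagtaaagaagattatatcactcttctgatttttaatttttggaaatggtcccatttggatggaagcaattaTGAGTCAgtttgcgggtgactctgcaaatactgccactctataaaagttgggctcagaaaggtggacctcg
Sprr1a: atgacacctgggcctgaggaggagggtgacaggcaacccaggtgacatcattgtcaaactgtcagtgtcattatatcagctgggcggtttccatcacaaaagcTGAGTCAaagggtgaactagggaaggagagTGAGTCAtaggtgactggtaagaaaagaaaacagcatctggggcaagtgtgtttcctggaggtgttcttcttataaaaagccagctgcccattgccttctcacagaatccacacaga
Il6: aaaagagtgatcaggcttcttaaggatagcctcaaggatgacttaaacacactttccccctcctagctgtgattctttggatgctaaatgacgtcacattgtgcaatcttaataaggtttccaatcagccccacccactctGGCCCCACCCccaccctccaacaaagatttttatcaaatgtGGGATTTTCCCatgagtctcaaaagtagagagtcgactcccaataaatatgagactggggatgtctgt
Cxcl1: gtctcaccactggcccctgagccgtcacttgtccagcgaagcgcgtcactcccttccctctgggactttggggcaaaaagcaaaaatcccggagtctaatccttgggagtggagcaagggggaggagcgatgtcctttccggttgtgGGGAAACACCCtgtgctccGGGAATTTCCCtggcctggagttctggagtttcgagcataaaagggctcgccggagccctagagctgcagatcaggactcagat
The Mmp13 window lies at chr8:12782579-12782828 (plus strand), with its match 66 bases before the start. The Mmp3 window at chr8:12925031-12925280 (plus strand) has a match 71 bases before the start. Sprr1a, a cornified envelope gene described below, has matches 147 and 117 bases before the start in chr2:180752626-180752875 (minus strand). Il6, at chr4:5894576-5894825 (minus strand), has the first of 3 matches 109 bases before the start, and Cxcl1, at chr14:17479322-17479571 (minus strand), the first of 4 matches 103 bases before it. The AP-1 letters were present in 26 of 296 windows of protein-coding genes called higher (8.78%), in 7 of 87 of those called lower (8.05%), and in 211 of 3896 of all tested (5.42%). Over all 33469 windows of the table the share was 6.34%. The looser NF-kB letters were present in 67.9% of windows of genes called higher, 63.2% of those called lower, 63.2% of those tested and 42.3% of all windows. A match describes these letters and shows no binding.

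Secreted defence proteins rose in 7 of 16 tested genes, and the spread between patch libraries was wide. S100a9, a subunit of the neutrophil and keratinocyte protein calprotectin, stood at 123, 111 and 124 FPKM in Control and 709, 1061 and 6279 FPKM under the patch (log2 3.81, SE 0.99, adjusted p = 0.0206, limma). The call ended without SF/HA-HEP-PAM replicate 3 (log2 2.85, adjusted p = 0.073), without Control replicate 2 (adjusted p = 0.0563) or without Control replicate 3 (adjusted p = 0.0536), and without SF/HA-HEP-PAM replicate 1 the difference was 4.43. Its partner S100a8 measured 75.1, 43.4 and 62.5 FPKM against 154, 265 and 3472 FPKM and was not called (log2 3.13, SE 1.32, adjusted p = 0.12), with 1.76 without SF/HA-HEP-PAM replicate 3 and 4.01 without SF/HA-HEP-PAM replicate 1. Both genes were higher in every patch library than in any Control library, and SF/HA-HEP-PAM replicate 3 was far above the other patch libraries. Slpi, a secreted inhibitor of leukocyte proteases with the highest Control level of the list, rose more evenly, from 245, 494 and 401 to 1013, 1751 and 1769 FPKM (log2 2.00, adjusted p = 0.00574). Chi3l1, a chitinase-like glycoprotein, rose by 2.44 and S100a7a by 2.12. Without SF/HA-HEP-PAM replicate 3 the list count was 4.

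Of 15 tested macrophage and monocyte markers 9 rose and 1 fell. Lyz2, the lysozyme of myeloid cells, went from 5.05, 3.83 and 7.06 to 40.0, 57.3 and 50.02 FPKM (log2 3.004, SE 0.28, adjusted p = 0.000181, limma). Tyrobp, the signalling adaptor of myeloid receptors, rose by 2.51 and Fcer1g, another such adaptor, by 2.07. C1qa, a chain of the first complement component that macrophages make, rose from 4.26, 1.95 and 1.70 to 23.8, 15.8 and 13.3 FPKM (log2 2.39, adjusted p = 0.00147). Serping1, which encodes the C1 inhibitor, and C1s, its target protease, rose by 2.17 and 1.73, within 7 of 12 complement genes called higher. Cd68, a lysosomal marker of macrophages, overlapped between groups (48.1, 79.1 and 69.5 FPKM against 56.4, 46.4 and 64.0; log2 -0.22, adjusted p = 0.522).

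The fall in the macrophage list was Arg1, arginase 1, from 19.2, 22.3 and 17.9 to 3.92, 3.49 and 3.67 FPKM (log2 -2.14, SE 0.25, adjusted p = 0.000416, limma). All 3 patch libraries lay far below the Control range. MHC class II genes, which present antigen, rose in 5 of 7 tested members. Cd74, their invariant chain, went from 11.6, 6.60 and 10.7 to 58.5, 36.4 and 28.3 FPKM (log2 1.96, adjusted p = 0.00161). After quantile normalization 3 of the 7 were called. The macrophage list called 6 higher without Control replicate 2 and 6 without Control replicate 3.

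Marker lists of the cells that could have entered with these genes read as follows. The 22 macrophage markers in the table summed to 119 to 156 FPKM in Control and 238 to 246 FPKM under the patch, and none was at 0 reads in all 6 libraries. The 16 neutrophil markers summed to 172 to 208 FPKM in Control and 926 to 9920 FPKM under the patch, but Mpo, Ltf and Retnlg, which define the lineage, had 0 reads in all 6 libraries. The neutrophil list had 3 of 6 tested genes higher, and 0 without SF/HA-HEP-PAM replicate 3. All 6 differences were above 0, with a median of 1.80. Of 8 mast cell genes 6 had 0 reads in all 6 libraries, and the 15 lymphocyte markers summed to at most 1.67 FPKM in Control and 8.31 FPKM under the patch. The part of cell entry in the cytokine, chemokine and complement counts was not tested.

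**Figure D3:**
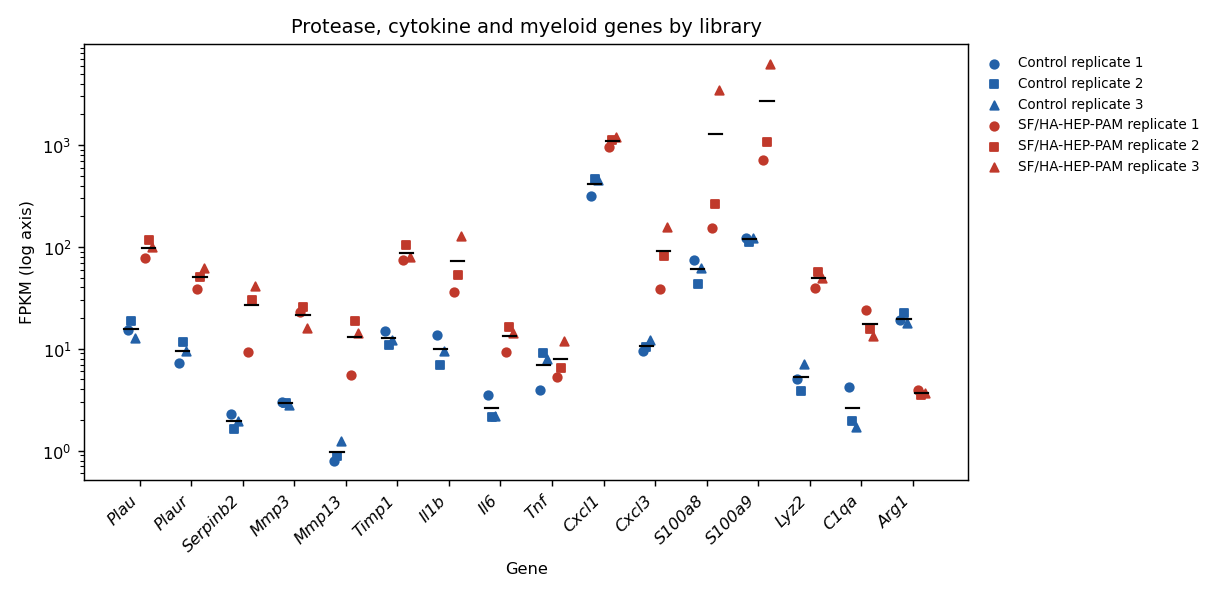
FPKM (log axis) of 16 protease, cytokine, chemokine and myeloid genes in each library, Control in blue and SF/HA-HEP-PAM in red, with the group mean as a bar. Groups separate for all genes shown except Tnf; SF/HA-HEP-PAM replicate 3 stands far above the other patch libraries for S100a8 and S100a9, and Arg1 is lower under the patch.

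Of 11 tested genes in the list of mucins, tetraspanins and Ly6 proteins of the epithelial surface, 4 fell and 2 rose. Slurp1, a secreted Ly6 protein of the ocular surface, went from 1118, 2448 and 1847 FPKM in Control to 322, 225 and 151 FPKM (log2 -2.95, SE 0.44, adjusted p = 0.00174, limma). Lypd2, a related surface protein and the most abundant gene of the list, went from 6032, 12935 and 12114 to 2984, 2612 and 1869 FPKM (log2 -2.01, adjusted p = 0.00474). The membrane mucin Muc20 (log2 -2.28) and the tetraspanin Tspan1 (-1.67) fell as well. Without Control replicate 1 the rises numbered 1. The largest rise was also a Ly6 protein: Ly6d, at 8.22, 12.02 and 13.8 FPKM in Control, stood at 121, 183 and 233 FPKM under the patch (log2 3.85, SE 0.45, adjusted p = 0.00045). Control held 43 reads of Ly6d in all.

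Genes of ion and water transport fell in 5 of 16 tested members. Duoxa2, the maturation factor of the hydrogen peroxide producing enzyme Duox2, stood at 67.7, 68.8 and 90.5 FPKM in Control and 6.80, 10.8 and 8.73 FPKM under the patch (log2 -2.98, SE 0.26, adjusted p = 0.000147, limma). Fxyd4, a regulator of the sodium pump, fell by 2.41 and Prss22, an epithelial serine protease, fell by 1.84. The 2 rises of the list were not stable: 0 remained called higher without Control replicate 2, Control replicate 3 or SF/HA-HEP-PAM replicate 3, and 1 without Control replicate 1 or SF/HA-HEP-PAM replicate 2. With reads thinned to the smallest library, 3 members of the list were lower.

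Of 7 tested zinc transport genes and metallothioneins 4 rose and 2 fell. Slc39a4, the ZIP4 importer, fell from 70.5, 96.2 and 81.9 to 15.9, 13.9 and 21.2 FPKM (log2 -2.23, SE 0.21, adjusted p = 0.000181, limma). Of the 3 tested metallothioneins, which bind zinc, 2 rose and 1 fell. Mt2A went from 1001, 408 and 536 to 2115, 2306 and 1674 FPKM (log2 1.74, adjusted p = 0.00509) and Mt1 rose by 1.26. Mt3 fell from 2.93, 2.41 and 4.21 to 0.497, 0.336 and 0 FPKM (log2 -1.71, adjusted p = 0.0257). For Mt1 the fit on thinned reads gave 0.95, under the fold needed for a call. Of the zinc genes 1 fell without Control replicate 3, and likewise without SF/HA-HEP-PAM replicate 2 or replicate 3.

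Keratins and envelope proteins of stressed epithelium moved in both directions. Krt17, a keratin induced at wound edges, went from 75.8, 117 and 124 to 385, 586 and 1022 FPKM (log2 2.56, SE 0.41, adjusted p = 0.00231, limma), and Krt15, of basal cells, rose by 2.35. Krt75 fell by 2.13. Krt6a, the usual partner of Krt17, is the symbol of 2 gene IDs that went apart (log2 1.81, adjusted p = 0.00356, and -0.60, not called). Reads may be split between copies, so neither is read further. Among 18 cornified envelope genes 7 rose and 3 fell. Cnfn, cornifelin, went from 24.9, 13.1 and 26.6 to 164, 214 and 703 FPKM (log2 3.76, adjusted p = 0.0011), a difference of 3.12 without SF/HA-HEP-PAM replicate 3. Sprr1a, a cross-linked precursor of the envelope, rose by 2.33 and Sbsn, suprabasin, by 2.19. Csta, the protease inhibitor cystatin A, fell from 12.3, 25.4 and 26.1 to 1.71, 1.12 and 3.43 FPKM (log2 -2.85, adjusted p = 0.000828). The falls of stressed keratins numbered 2 without Control replicate 1 and 2 without SF/HA-HEP-PAM replicate 3, instead of 1.

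Transcription factors of the epithelium rose in 7 of 23 tested genes, and none fell. Sox9, a factor of progenitor and repair states, stood at 7.84, 6.35 and 3.04 FPKM in Control and 57.4, 36.4 and 79.4 FPKM under the patch (log2 3.13, SE 0.42, adjusted p = 0.000986, limma). Etv3, an ETS family repressor, rose from 1.82, 2.45 and 1.74 to 26.5, 15.6 and 30.1 FPKM (log2 3.02, adjusted p = 0.000373). Grhl3, a grainyhead factor needed for epidermal barrier and wound closure, rose by 1.89 from 1.74 to 2.98 FPKM in Control to 9.601 to 12.99 FPKM. No patch library of these 3 genes came near the highest Control library. Klf6 and Fosl1, both early response factors, rose by 1.51 and 1.4999, within 6 of 25 immediate early genes. Jun, Fos and Egr1 were not called (0.68, 0.52 and 0.68).

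Of 16 tested junction genes 4 rose. Cldn1, a barrier claudin of tight junctions, rose from 2.44, 5.29 and 3.18 to 12.8, 12.7 and 15.9 FPKM (log2 1.71, adjusted p = 0.00179, limma) and Ctnnb1, beta-catenin, by 2.07. Without Control replicate 1 that count was 2, with 2 others lower. Of 6 tested connexins, the channel proteins of gap junctions, 3 rose; only 1 did without Control replicate 3 and only 1 without SF/HA-HEP-PAM replicate 3. Without Control replicate 2, 1 connexin was lower. Pthlh, which encodes parathyroid hormone-related protein, rose from 1.30, 4.08 and 0.979 to 12.2, 17.9 and 43.1 FPKM (log2 2.96, adjusted p = 0.00755), and Areg, the EGF receptor ligand amphiregulin, by 1.47. Jag1, a Notch ligand, rose by 2.15 and Dll1, another, by 1.33 from under 0.4 FPKM in each Control library.

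**Figure D4:**
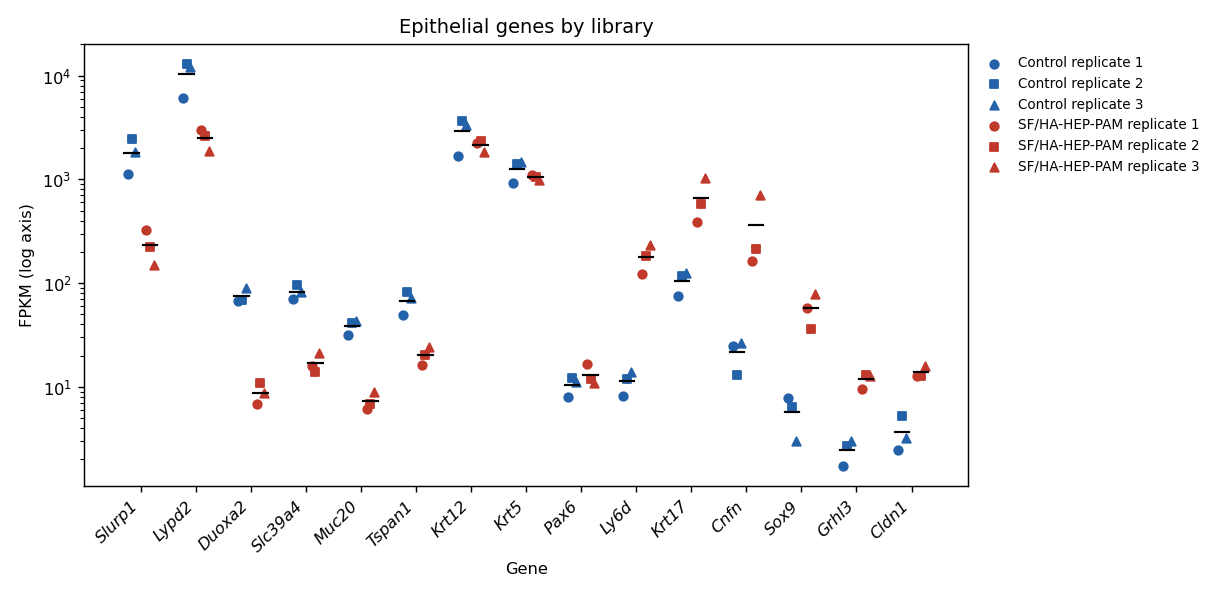
FPKM (log axis) of 15 epithelial genes in each library, Control in blue and SF/HA-HEP-PAM in red, with the group mean as a bar. The 6 surface and transport genes at the left are lower under the patch, Krt12, Krt5 and Pax6 overlap, and the 6 genes at the right are higher.

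Tkt and Aldh3a1, enzymes that serve the cornea as crystallins, were lower. Tkt, transketolase, measured 108, 105 and 100 FPKM in Control and 61.9, 54.2 and 34.4 FPKM under the patch (log2 -1.08, SE 0.23, adjusted p = 0.00829, limma); without SF/HA-HEP-PAM replicate 3 the difference of -0.84 missed the fold needed. Aldh3a1, the aldehyde dehydrogenase that makes up much of the soluble corneal protein, fell from 1270, 1999 and 2111 to 1101, 1018 and 579 FPKM (log2 -1.01, adjusted p = 0.0326). The Aldh3a1 call ended without Control replicate 2 (adjusted p = 0.0949), Control replicate 3 (0.103) or SF/HA-HEP-PAM replicate 3 (0.113), and with the replicate number as a block (0.0601). In the list of 26 NRF2 and oxidative stress genes 3 fell and 1, Sod2, rose. The falls numbered 1 without Control replicate 2 and 1 without SF/HA-HEP-PAM replicate 3, and 2 rose without Control replicate 2.

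Stress and metabolic lists were raised in a minority of members. Sesn2, a sestrin that restrains mTORC1 after amino acid loss or DNA damage, measured 3.54, 3.03 and 3.59 FPKM in Control and 19.96, 15.7 and 20.8 FPKM under the patch (log2 2.17, SE 0.17, adjusted p = 7.81e-05, limma). It is one of 5 of 23 genes of the integrated and unfolded protein stress response that rose, while Atf4, the factor that drives the response, overlapped between groups in mRNA level (106 to 165 FPKM in Control, 111 to 136 FPKM under the patch, adjusted p = 0.996). Ddit4, an mTORC1 inhibitor induced by hypoxia and glucocorticoids, rose by 1.74, Ndrg1 by 1.46 and the glycolytic enzyme Pkm by 1.41, among 5 of 23 hypoxia and glycolysis genes; 8 rose without SF/HA-HEP-PAM replicate 1. G0s2, which inhibits the triglyceride lipase, rose from 15.9, 19.2 and 15.95 to 93.2, 236 and 416 FPKM (log2 3.55, adjusted p = 0.00317), and Plin2, a lipid droplet coat protein, by 1.43. Pmaip1, the p53 target Noxa, rose by 2.24 and Mdm2, the ubiquitin ligase of p53, by 1.41. After quantile normalization 2 genes of the integrated stress list were called higher.

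Housekeeping lists gave few calls or none. None of 44 tested cytosolic ribosomal protein genes, 33 nuclear-encoded genes of oxidative phosphorylation or 16 ribosome biogenesis genes was called, with median differences of 0.19, -0.17 and 0.34. Of 18 heat shock genes 1 rose (5.56%, beside 9.21% of all tested genes). The count was 3 without Control replicate 1, and 0 when any 1 of the other 5 libraries was left out. The mitochondrial rRNA genes AY172581.9 and AY172581.24 fell (log2 -1.09 and -1.64). Among 13 mitochondrially encoded mRNAs Mt-nd4l (-1.84) and Mt-nd5 (-1.06) were lower, while Mt-co3, the most abundant, overlapped between groups (13260, 17600 and 17115 FPKM against 25789, 21662 and 16066). Without Control replicate 1, or without SF/HA-HEP-PAM replicate 2, the Mt-nd5 difference (-0.92 and -0.85) missed the fold needed, and Mt-nd4l rested on 34 Control reads. The mitochondrial falls numbered 1 without Control replicate 1 and 1 without SF/HA-HEP-PAM replicate 2.

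Npy, which encodes neuropeptide Y, fell from 214, 431 and 318 to 42.2, 42.7 and 25.1 FPKM (log2 -3.08, SE 0.41, adjusted p = 0.000892, limma). The groups were far apart in all 6 libraries. It was the only gene called among 3 tested nerve and Schwann cell markers, and Calca and Nefl had 0 reads in all 6 libraries.

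Of 17 tested splicing regulators 8 rose, and 5 without SF/HA-HEP-PAM replicate 1. Rbm39, a splicing factor, went from 9.47, 6.22 and 5.87 to 30.6, 29.4 and 27.8 FPKM (log2 1.91, SE 0.19, adjusted p = 0.000296, limma), and the kinases of SR proteins Clk1 and Clk4 both rose by 1.51. Polg2, the accessory subunit of the mitochondrial DNA polymerase, rose from 1.38, 1.19 and 0.661 to 36.5, 17.9 and 28.5 FPKM (log2 3.75, SE 0.33, adjusted p = 0.000158). Control held 25 reads of Polg2, and voom on recovered reads gave 4.70. Polg2 lies on chromosome 10 from 91712586 to 91723008, minus strand, and Ddx5 from 91723508 to 91732283 on the same strand, 499 bases upstream of it. Ddx5, an RNA helicase, was 35.2 to 44.99 FPKM in Control and 48.7 to 58.9 FPKM under the patch (log2 0.40, adjusted p = 0.0635). Whether reads that pass the end of Ddx5 reach the Polg2 feature was not tested.

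Features of small RNA classes (snRNA, snoRNA, miRNA, rRNA and similar) were called higher in 66 of 251 tested and lower in 2. Those are 26.3% and 0.797%, beside 9.21% and 2.39% of all tested genes. Of the 66, 44 had 0 reads in all Control libraries, so they have no fold here, and 42 lie inside the span of a protein-coding gene. The 66 features held 3 to 1458 patch reads each, with a median of 13. A short feature can pass the filter of 1 FPKM in 3 libraries through the deeper patch libraries alone. The shares are therefore no result about small RNAs. Together such features took 0.0347% to 0.0448% of Control reads and 0.119% to 0.175% of patch reads, at the depths given above. Gm23795, a snoRNA feature inside Tardbp, had 0 reads in Control and 39, 28 and 27 reads under the patch, while Tardbp itself was not called (log2 0.27). Long non-coding RNA genes were called higher in 66 of 333 tested (19.8%). On recovered reads the median difference also moved with gene length, from -0.0087 in the shortest decile of protein-coding genes to 0.42 in the ninth. The part of RNA composition in these calls was not tested.

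Of 8 miRNA features called higher, all 8 matched RefSeq. The 3 below are shown because miR-155 is known from activated immune cells and miR-23b and miR-24 from miRNA clusters. Their seed, bases 2 to 8 of the mature miRNA, is in capitals.
rno-miR-155-5p: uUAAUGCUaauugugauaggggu
rno-miR-23b-3p: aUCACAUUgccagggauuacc
rno-miR-24-3p: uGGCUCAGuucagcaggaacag
The 3 seeds differ. Reads fell on the hairpin features in libraries primed from poly(A), so they give no level of the mature miRNA. Mir155 held 1 read in Control and 14 under the patch, Mir23b 7 and 62, and Mir24-2 22 and 200. The Mir23b feature lies on chromosome 17 and Mir24-2 on chromosome 19, so the 2 are separate loci. Mir27a, next to Mir24-2 on chromosome 19, was also called higher, with 0 reads in Control and 3 under the patch.

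SF/HA-HEP-PAM was also tested directly against the other treated groups. These tests share its 3 libraries with the comparison against Control, so the values stand side by side and are no second support. In the direct test of SF/HA-HEP-PAM against Alkali-burned 11.1% of tested genes were called, and 4.37% against SF/HA. Some stromal genes differed from burned corneas by the test. Of 17 leucine-rich proteoglycans and secreted stromal proteins 4 were lower, and of 12 keratocyte markers, which share members with them, 2 were lower. None of either list was higher. Of 12 collagen genes 1 was higher and 1 lower. Neither Col1a1 nor Pla2g2a was called. Col1a1 averaged 268 FPKM under the patch and 350 FPKM in burned corneas (log2 -0.44, SE 0.36, adjusted p = 0.42, limma), and Pla2g2a 35.4 and 37.9 FPKM (log2 -0.22, adjusted p = 0.798). A p above the threshold does not show that the levels were alike. Surface genes differed as well. Duoxa2 averaged 75.7 ± 12.8 FPKM in Control, 117 FPKM in burned, 24.4 FPKM in SF/HA and 8.78 ± 2.01 FPKM in SF/HA-HEP-PAM corneas (SD, n = 3), a difference of -3.61 from burned (adjusted p = 2.48e-05) and -1.34 from SF/HA (adjusted p = 0.0128). Slc39a4 differed from burned by -3.11 (adjusted p = 1.68e-05), with a mean of 154 FPKM in burned corneas and 16.99 FPKM under the patch.

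Several of the rises also set SF/HA-HEP-PAM apart from both other treated groups. Etv3 averaged 24.1 FPKM under this patch, 2.94 FPKM in burned and 3.40 FPKM in SF/HA corneas (log2 2.63, adjusted p = 0.000624, and 2.58, adjusted p = 0.00255, limma). Polg2 averaged 27.6, 1.69 and 1.06 FPKM in the same order, with differences of 3.39 and 3.82. Jag1 differed by 2.19 and 2.20, and Rbm39 by 2.43 and 1.70. Il6, by contrast, averaged 13.4 FPKM under the patch, 13.9 FPKM in burned and 27.4 FPKM in SF/HA corneas, and neither direct difference was called (-0.03, adjusted p = 0.974, and -0.86, adjusted p = 0.234). Cxcl1 was lower than in SF/HA corneas by 1.03 (adjusted p = 0.034), with means of 1092 and 2289 FPKM.

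**Figure D5:**
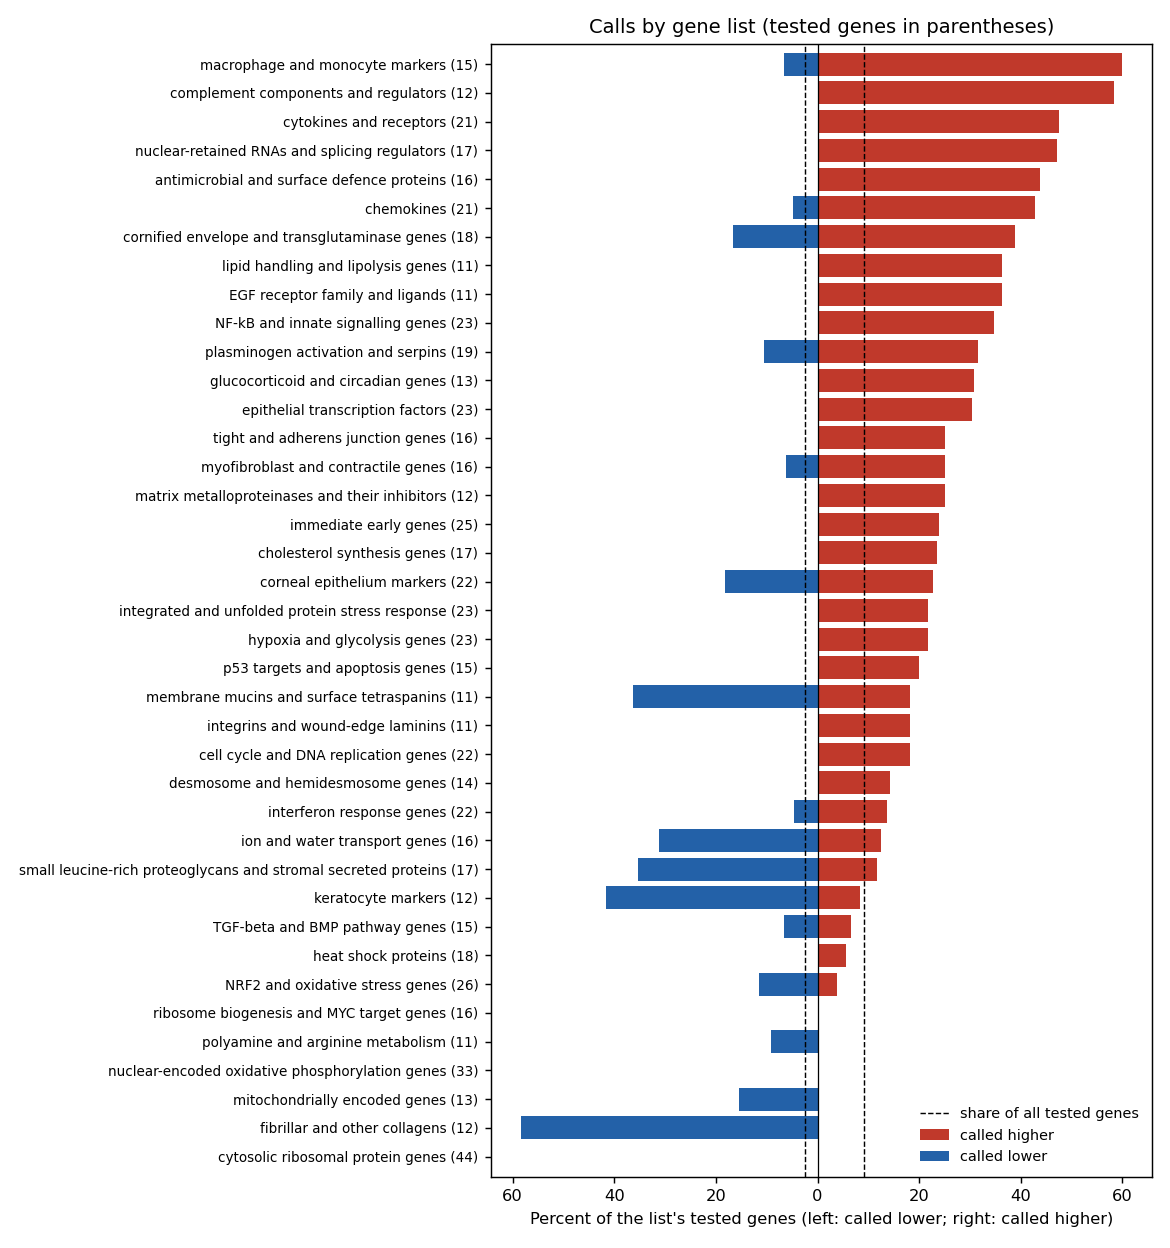
For each of 39 gene lists with at least 10 tested genes (number in parentheses), bars show the percent called lower (left, blue) and higher (right, red) in SF/HA-HEP-PAM against Control. Dashed lines mark the shares over all tested genes, 2.39% lower and 9.21% higher; macrophage, complement and cytokine lists reach furthest right and collagens furthest left.

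Across the 57 lists, 710 genes were tested, of which 155 were higher and 41 lower. The lists with the largest share of lower genes were collagens, keratocyte markers and surface mucins and Ly6 proteins, in the chart of calls by list. The lists were drawn up with earlier results of these data known, so the shares describe them and no more.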

How the data were processed

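RNA was read from ground rat corneas with poly(dT) primers that carry sample barcodes and molecular identifiers, per the labels' protocols; whether reads were collapsed by identifier is not given in the sources used here. The authors deposited 1 table of FPKM values for 12 libraries, made from reads. The submitters' processing notes name bcl2fastq, fastp, STAR, featureCounts, DESeq2 and build mRatBN7.2, whereas the series text names HTSeq-count for counting. The length behind the FPKM equals the whole genomic span of each gene, introns included, which lowers the FPKM of long genes. Each value was a whole number of reads, within 9.36e-06 of a read. Strand of counting is not given, so overlapping genes are uncertain. Left out were 108 lines that name no gene; 7092 genes have no symbol and go by ID.

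Log2(FPKM + 1) was fitted with limma 3.58.1 (R 4.3.3, empirical Bayes with trend) over all 12 libraries and 4 group means, with Benjamini-Hochberg adjustment over 6112 genes. A gene was called at an adjusted p below 0.05 and a log2 difference above 1 or below -1. Exact permutation tests served for library measures. The scripts were tested on simulated data. The members, gene lists and named genes were chosen with earlier results of these data known; genes named were the 15 largest rises and falls with at least 5 FPKM and no overlap, up to 6 called members per list, each list's most abundant and defining members and a fixed set. Not every gene so allowed is named, and Atf4, Jun, Fos, Egr1, Ddx5, Tardbp and the miRNA features were picked after their values were seen. Sequences come from RefSeq tables of build GRCr8, whose coordinates differ from mRatBN7.2. Figures used Python 3.11.15 and matplotlib 3.10.9. Alternatives tried were pseudocount, filters, scaling, library weights, voom on recovered reads, thinning, the replicate number as a block and leaving out libraries.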

Additional observations from a re-analysis of the deposited data

How the results depend on the processing

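None of the 709 genes was called in the opposite direction in any of the 21 settings tried. Some were not tested in every setting, 223 of them with a filter of at least 5 FPKM in 3 libraries. With a pseudocount of 5 there were 345 called genes, 262 higher and 83 lower. With voom on the recovered reads there were 1537, 1232 higher and 305 lower. With no fold threshold there were 1341, 1032 higher and 309 lower. Quantile normalization gave 283 lower genes. Leaving out 1 library at a time gave 566 to 708 called genes, 456 to 556 higher and 110 to 157 lower. With the replicate number as a replicate block 702 genes were called, 553 higher and 149 lower, and 684 of the 709 were kept. The labels do not say whether same-numbered libraries are paired. Deviations of same-numbered libraries correlated at 0.049, 0.019 and 0.022, and 2 of 3 patch libraries correlated best with their own number. With 3 libraries per group these values cannot decide it.

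Of 150 called genes followed through all settings, 113 kept the call in each of the 6 fits without 1 library, and 113 with a pseudocount of 5. Among genes named above, Dll1, Vcam1, Fcer1g, Plin2, Ndrg1 and Clk4, all of low FPKM, lost the fold needed at a pseudocount of 5. Fitted without Control replicate 1 and SF/HA-HEP-PAM replicate 3 together, Pthlh (adjusted p = 0.0609), Areg (0.0761) and Slpi (0.0522) were not called. Mt-nd4l was not called on thinned reads (adjusted p = 0.0841). Among the 162 genes so followed, called or not, signs turned only in genes that were not called. Lum was 0.034 without both libraries. Dcn was 0.17 with library weights, 0.17 without Control replicate 1, 0.11 without SF/HA-HEP-PAM replicate 3 and 0.42 without both. Tnf was -0.14 with library weights, -0.072 after quantile normalization, -0.15 without Control replicate 1, -0.14 without SF/HA-HEP-PAM replicate 3 and -0.46 without both. Over the fits without 1 library Dcn ranged from -0.33 to 0.17 and Tnf from -0.15 to 0.37. The cause of these changes was not tested. Depth limits Control most: 73 genes called higher had 0 Control reads, 19 of them protein-coding.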

Other observations

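Small sets of genes outside the groups described above were also called. Of 17 tested cholesterol synthesis genes 4 rose, among them Srebf2, the transcription factor of the pathway, by 1.61 and Idi1, an isomerase of isoprenoid synthesis, by 1.27. Leaving out SF/HA-HEP-PAM replicate 3 gave a count of 2. Of 22 tested cell cycle and replication genes 4 rose, with Rrm2, a subunit of ribonucleotide reductase, at 1.48 and Mcm4, of the replicative helicase, at 1.39. That count was 2 without Control replicate 1 and 2 without SF/HA-HEP-PAM replicate 3. Clu, the secreted chaperone clusterin, rose from 5.92, 4.17 and 3.98 FPKM in Control to 26.9, 38.2 and 25.2 FPKM under the patch (log2 2.44, adjusted p = 0.000295, limma), with no overlap between groups.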
